A study of Caenorhabditis elegans with 2 samples.

Results

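The loci described here are the genes annotated as snoRNA in Caenorhabditis elegans (Ensembl release 115, assembly WBcel235), read against peaks of the GFP-tagged protein K12H6.12. All 346 genes of that class were taken, out of 46890 annotated genes on the 6 nuclear chromosomes. Of these, 183 lay inside a protein-coding gene on the same strand and are called hosted. The other 163 are called so here, 33 of them inside a coding gene on the opposite strand. Chromatin came from whole young adults of 72 hours, males and females mixed, of strain OP214. Every animal carried unc-119(ed3) III and the transgene wgIs214, whose product is K12H6.12 with GFP and FLAG at its C terminus, and chromatin was pulled down with an antibody to GFP. Biological replicates 2 and 3 form the only group, and every sample carried the tag. All animals came from 1 stably transformed line and were taken whole, so that tissues are not resolved. No condition was compared, and every value below describes where peaks lay in these animals. The window of a locus ran from 1000 bp before the snoRNA gene's 5' end to 200 bp past it, and a peak belonged to the locus where its summit, the base of highest signal, fell inside. The IDR list holds the 2268 peaks that passed the authors' reproducibility threshold (IDR), derived from both replicates. Membership does not show a peak in each replicate taken alone. The list's deposited peak signal is a score of unstated scaling, with a median of 147 and a range of 97.9 to 1112.

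Small nucleolar RNAs guide the chemical modification of ribosomal RNA. Box C/D snoRNAs direct methylation of the ribose and carry a C box near one end and a D box near the other, and box H/ACA snoRNAs direct the change of uridine to pseudouridine and end in an ACA box. In many animals snoRNAs lie in introns and are cut out of the transcript of the host gene, so that they need no promoter of their own. In C. elegans many snoRNA genes, some of them inside introns, also have upstream promoter elements. Some of these resemble box A and box B, the elements inside tRNA genes that recruit RNA polymerase III, and others resemble the proximal sequence element (PSE) of snRNA genes.

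The sequences below are shown because their 5' flanks hold one or other kind of element beside a K12H6.12 summit. Each of the upstream sequences is the 100 bases before the annotated 5' end, on the strand of the snoRNA, from the RefSeq copy of the same assembly. In the first set the capitals mark the box B core (GTTCNANNC) and, where present, the box A letters (GGCNNAG). C51F7.3 (chrV:12303608-12303707, + strand) and F55A11.10 (chrV:11782892-11782991, + strand) are hosted. W03C9.9 (chrII:11960798-11960897, + strand) and T03F7.8 (chrV:11314158-11314257, + strand) are not.
C51F7.3: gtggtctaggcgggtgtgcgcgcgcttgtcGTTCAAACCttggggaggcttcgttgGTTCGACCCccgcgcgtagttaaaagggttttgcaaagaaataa
F55A11.10: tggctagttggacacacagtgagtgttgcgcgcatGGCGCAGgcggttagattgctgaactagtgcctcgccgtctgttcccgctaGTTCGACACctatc
W03C9.9: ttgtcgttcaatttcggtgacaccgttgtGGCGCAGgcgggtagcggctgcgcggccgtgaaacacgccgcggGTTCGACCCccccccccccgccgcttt
T03F7.8: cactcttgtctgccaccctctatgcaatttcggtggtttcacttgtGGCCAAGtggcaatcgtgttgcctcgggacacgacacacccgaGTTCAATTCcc

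In the second set the capitals mark PSE-like letters, which are AAC and TGTC with any 8 bases between them. ZK994.7 (chrV:8500479-8500578, + strand) and C16D9.11 (chrV:8228970-8229069, − strand) are hosted. Y53F4B.47 (chrII:15025894-15025993, − strand) and T26A8.6 (chrIV:8428740-8428839, − strand) are not.
ZK994.7: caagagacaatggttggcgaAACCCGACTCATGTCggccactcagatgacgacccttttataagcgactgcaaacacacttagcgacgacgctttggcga
C16D9.11: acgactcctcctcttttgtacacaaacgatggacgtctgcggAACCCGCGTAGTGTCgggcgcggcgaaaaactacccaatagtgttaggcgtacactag
Y53F4B.47: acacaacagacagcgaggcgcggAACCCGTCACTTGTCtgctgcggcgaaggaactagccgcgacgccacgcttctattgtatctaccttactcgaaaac
T26A8.6: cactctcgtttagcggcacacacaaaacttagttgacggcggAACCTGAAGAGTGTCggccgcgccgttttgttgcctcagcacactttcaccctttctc

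The genes themselves ran from 54 to 344 bp, with a median of 130 bp. The letters of the snoRNA boxes were looked for as a check of the annotation, and 1 gene of each kind is shown whole. In C51F7.3 (chrV:12303708-12303783, + strand) the capitals mark the C box letters TGATGA and the D box letters CTGA. In ZK643.9 (chrIII:8937767-8937897, + strand) they mark the ACA that stands 3 bases before the end.
C51F7.3: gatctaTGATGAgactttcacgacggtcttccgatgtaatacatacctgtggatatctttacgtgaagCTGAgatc
ZK643.9: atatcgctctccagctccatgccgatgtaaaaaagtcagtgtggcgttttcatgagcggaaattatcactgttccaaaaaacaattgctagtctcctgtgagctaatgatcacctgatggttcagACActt
The C/D letters (TGATGA in the upstream part of the gene, CTGA in its last 25 bases) were found in 18 of the 346 genes and the ACA in 58, 76 genes in all (22.0%). Exact letters find only part of the true boxes, and a gene without them may still be a snoRNA. The gene identifiers fall into 2 blocks with a gap between WBGene00077517 and WBGene00195245, and the letters were spread unevenly over them: 68 of 139 genes (48.9%) below the gap and 8 of 207 (3.86%) above it. The label is thus less well borne out by sequence in the later block, and counts are given for both blocks where it matters; the split was made after the values were seen. The genes smy-2 and smy-3, annotated in the same class, are known as SmY RNAs, small nuclear RNAs of nematodes tied to trans-splicing.

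An IDR summit lay in the window of 105 of the 346 snoRNA genes, which is 30.3% (exact 95% interval 25.5 to 35.5, counting error over genes only). The same window held a summit at 5.53% of all annotated genes and at 7.10% of protein-coding genes. Among hosted genes the count was 50 of 183 (27.3%, 21.0 to 34.4) and among the others 55 of 163 (33.7%, 26.5 to 41.6), and these intervals overlap. For genes transcribed by RNA polymerase III or from a PSE, the share was 31.2% of 612 tRNA genes and 10.9% of 129 snRNA genes. The 105 loci rested on 99 distinct summits, since neighbouring snoRNA genes in the same host can share a peak. Where the window was narrowed to 100 bp on either side of the 5' end, 64 snoRNA genes (18.5%) kept an IDR summit. All annotated genes fell to 1.75% and protein-coding genes to 1.26%. The hosted genes stood at 12.6% (8.14 to 18.3) and the others at 25.2% (18.7 to 32.5).

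**Figure D1:**
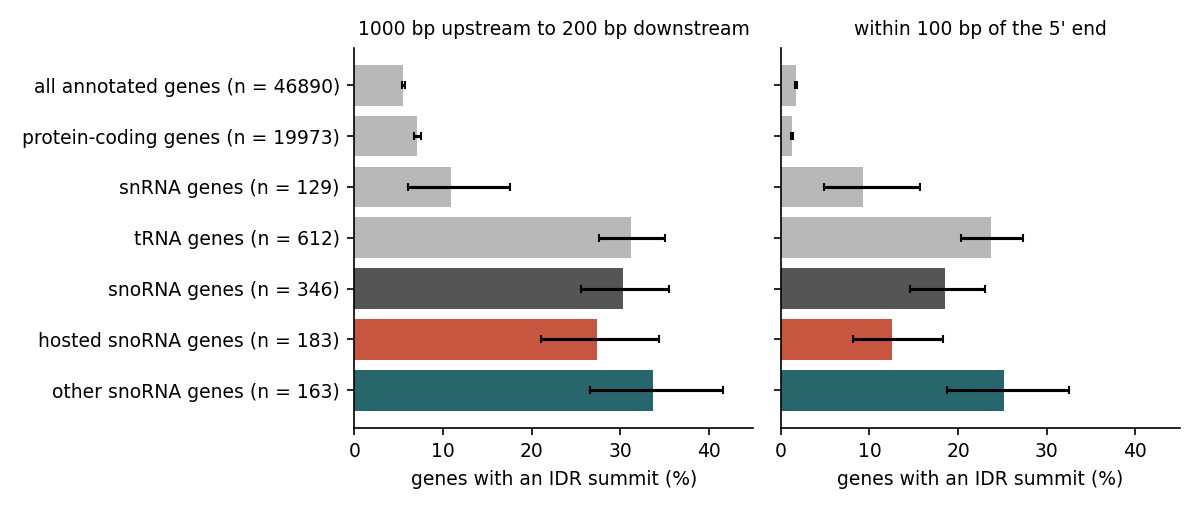
Share of genes (%) with an IDR summit in the window of 1000 bp upstream to 200 bp downstream (left) and within 100 bp of the 5' end (right), by gene class; lines are exact 95% binomial intervals and n is the number of genes. The snoRNA bar stands at 30.3% on the left and 18.5% on the right, against 5.53% and 1.75% of all annotated genes.

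In position the summits fell into a tight group at the snoRNA and a wide spread upstream of it. The strongest summit in the window lay within 100 bp of the 5' end at 62 of the 105 loci (59.0%, 49.0 to 68.5), a limit chosen after the positions were seen. These 62 summits had a median position 32 bp upstream of the 5' end, with quartiles at 52.8 and 20 bp upstream. Of them 51 were upstream of the 5' end and 10 inside the snoRNA gene. Within that limit the median was 39 bp upstream in the 23 hosted genes and 31 bp upstream in the 39 others. The limit itself holds both medians near the 5' end, so their closeness is no result. Other gene classes are set beside the snoRNA genes over every locus with a summit. On that basis the median was 58 bp upstream over the 105 snoRNA genes, 132.5 bp in the hosted and 51 bp in the others. Over 1418 protein-coding genes it was 267 bp upstream, with 17.2% within 100 bp. At 191 tRNA genes the median lay 15 bp downstream of the 5' end, and at 14 snRNA genes 22.5 bp upstream.

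**Figure D2:**
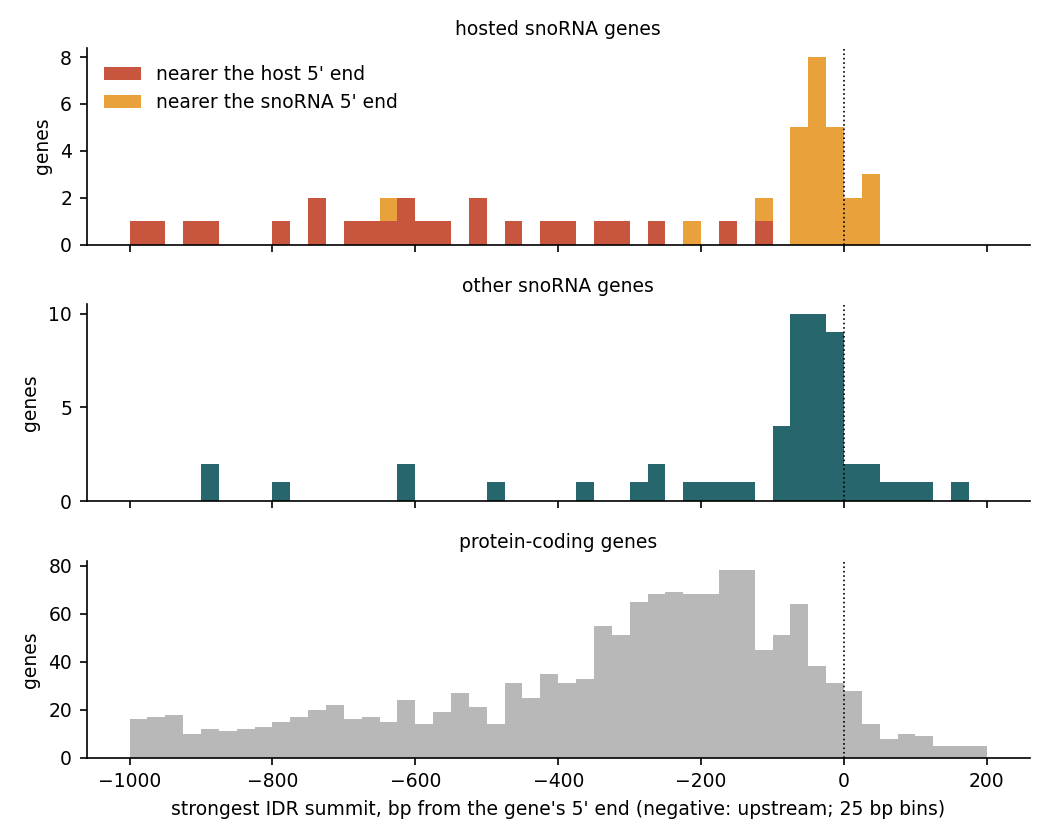
Position of the strongest IDR summit relative to the gene's 5' end (bp, negative values upstream, 25 bp bins) for hosted snoRNA genes, other snoRNA genes and protein-coding genes; bar heights are numbers of genes and the dotted line is the 5' end. Summits of both snoRNA groups pile up just upstream of the 5' end, with 59.0% of all 105 within 100 bp of it, against 17.2% of coding genes, whose summits are spread widely upstream with a median of 267 bp.

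Nearby features were counted at the same 62 loci. None of the 62 summits lay in or within 100 bp of a tRNA gene, beside 156 of the 2268 IDR summits. Inside another non-coding gene lay 12 of the 62. At 41 of the 62 the summit was in no promoter window of any coding gene, at 18 of 23 hosted and 23 of 39 other genes. The remaining 21 could not be told apart from a peak of the coding promoter by position alone. The shares of all IDR summits outside coding windows or inside other non-coding genes are not given here. These counts therefore describe the 62 loci alone. Sequence around these summits could nearly always be placed: every overlapping run of 31 bases near the summit occurred at 1 place in the genome for all 23 hosted genes and for 36 of 39 others.

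The hosted genes answer most directly whether a peak sits at the snoRNA or at the host. Of the 50 hosted genes with a summit, the strongest was nearer to the 5' end of the host at 24 (48%, 33.7 to 62.6) and nearer to the snoRNA at 26 (52%, 37.4 to 66.3). This split depends on the window: the share nearer the host was 24.2% of 33 genes with 500 bp upstream and 100 bp downstream, and 60% of 65 with 2000 and 500 bp. The 24 were in 19 hosts, and each of their summits lay in the host's own promoter window, at a median of 215 bp upstream of the host 5' end and 594.5 bp upstream of the snoRNA. The 26 were in 25 hosts, and none of their summits lay in the host's promoter window. Their median position was 44.5 bp upstream of the snoRNA and 2699 bp downstream of the host 5' end. Peaks at hosts were the stronger ones, with a median signal of 253.5 (102 to 768) against 156 (98.1 to 356).

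The distance to the host 5' end limits what the window can hold. Where the host 5' end was within 1000 bp of the snoRNA, 26 of 58 genes had a summit, 24 of them nearer the host. Where it was farther away, the window holds no host 5' end, and 24 of 125 genes (19.2%, 12.7 to 27.2) still had a summit. All 24 of these were nearer the snoRNA. For the 15 whose host 5' end was over 2000 bp away the window allows no other outcome, and for the remaining 9 it does. Of the 24, 21 were within 100 bp of the snoRNA, and 16 of those 21 were in no coding promoter window. The share of all IDR summits outside coding windows is not given here, so the 16 describe these loci alone. The 26 snoRNA genes with a summit nearer to them leave out those whose strongest summit was nearer the host. Of these 26, 3 had a host with an IDR summit in its own promoter, beside 7.10% of coding genes. Those hosts were hsp-1, which encodes an HSP70 chaperone, with a signal of 556, madf-11 with 166 and ret-1 with 111.

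**Figure D3:**
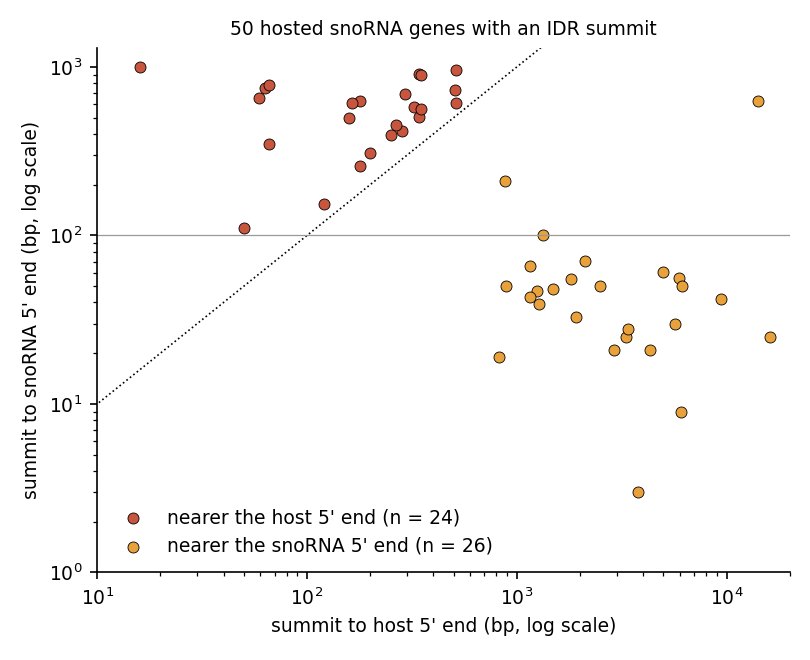
Distance from the strongest IDR summit to the host 5' end (horizontal, bp) and to the snoRNA 5' end (vertical, bp) for the 50 hosted snoRNA genes with a summit; both axes are logarithmic, the dotted line is equal distance and the grey line 100 bp. The 24 summits nearer the host and the 26 nearer the snoRNA form separate clouds, with 23 of the 26 within 100 bp of the snoRNA.

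The strongest hosted locus shared its peak with a ribosomal protein gene. K11H12.12 and K11H12.13 lie in introns of rpl-15, a gene of the large ribosomal subunit, and shared a summit of signal 768 in the pooled list, 408 in replicate 2 and 362 in replicate 3. It lay 349 bp upstream of rpl-15 and 564 bp upstream of K11H12.13. C06A1.9, in the AAA ATPase gene cdc-48.1, had a summit of signal 691 (342 in replicate 2, 351 in replicate 3) 158 bp upstream of its host. F54C9.12, in iff-2 (translation factor eIF5A), had one of 624 (299 and 329) 59 bp upstream of its host. At these loci the snoRNA gene was 501 to 895 bp from the summit, and the summit was in the host's promoter window. Summits in the host's promoter window were also found for F54E7.10 and F54E7.11 in rps-12 (302), F28D1.13 in rps-23 (301) and Y24D9A.9 and Y24D9A.10 in rpl-7A (267), all genes of ribosomal proteins. The summits at rps-12 and rps-23 stood nearer still to the 5' ends of other coding genes, ska-3 and dpm-3. F39B2.14, in tmem-107, had a summit of 343, and C02F5.15, in the F-box gene fbxl-1, one of 256. The 5' ends of these snoRNA genes lay 61 and 33 bp from the host's, so host and snoRNA are hardly separable there by position. C02F5.15 lies in more than 1 coding gene, and the nearest 5' end was used.

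Ribosomal protein genes made up much of the host side. They were taken by symbol (rpl-, rps- or rla- and a number), so such a gene under another name counts among the other hosts. Of the 24 snoRNA genes with a summit nearer the host, 15 were in cytosolic ribosomal protein genes. Of the 26 nearer the snoRNA, 0 were. Some of the 15 share a host and its summit, as in rpl-15, so they count genes and not separate peaks. In each ribosomal protein host the nearest snoRNA gene lay 80 to 752 bp from the host 5' end. By contrast, 24 of the 26 lay more than 1000 bp from theirs, so this difference cannot be separated from distance. The 156 hosts had an IDR summit in their own promoter at 42 (26.9%, 20.1 to 34.6), beside 7.10% of coding genes. Among the 13 ribosomal protein hosts 11 had one (84.6%, 54.6 to 98.1), and among the other 143 hosts 31 did (21.7%, 15.2 to 29.3). Ribosomal protein genes that host no snoRNA also had summits often, at 36 of 68 (52.9%, 40.4 to 65.2), and that interval overlaps the one for hosts. The only host with as many as 4 snoRNA genes was nol-56, whose product is a core protein of box C/D particles. Its own promoter held a summit of 115, which fell in the window of K07C5.11, and K07C5.10, K07C5.12 and K07C5.18 had no IDR summit.

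ZK994.7 was the strongest hosted locus with a peak at the snoRNA. This 67 bp gene lies in an intron of pxn-1, a peroxidasin gene, 5690 bp from the host 5' end. Its summit was 30 bp upstream of the snoRNA, with a signal of 356 in the pooled list, 134 in replicate 2 and 224 in replicate 3. The replicates' own summits lay 29 and 30 bp upstream. The PSE-like letters shown above stand upstream of that summit. C51F7.3, in the FERM domain gene frm-7, had its summit 66 bp upstream at a signal of 308 (158 in replicate 2, 160 in replicate 3), beside the box B letters shown above. C51F7.4, an annotated snoRNA gene of the later block, covers that same flank and shares the peak, 43 bp inside its body, so the locus counts 2 genes for 1 summit.

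The next hosted loci of this kind had signals between 173 and 222. C27H6.5, in unc-41 (a stonin of synaptic vesicle recycling), had its summit 56 bp upstream at 222, with 89.9 in replicate 2 and 132 in replicate 3. F55A11.10, in F55A11.6, had one 50 bp upstream at 215, with 115 in replicate 2 and 117 in replicate 3. T08B2.13, in the phenylalanyl-tRNA synthetase gene fars-1, had one 55 bp upstream at 205, with 104 and 109. These 3 were higher in replicate 3, by a little in the last pair. Y43F8C.22, in Y43F8C.7, had one 19 bp upstream at 205 (104 and 104). Y71F9AM.7, in cogc-3 of the Golgi complex COG, had one 21 bp upstream at 182, and F11A10.9, in rbm-34, one 47 bp upstream at 174. M106.6 lay deepest in its host: in mix-1, a condensin subunit, it was 16071 bp from the host 5' end and its summit 25 bp upstream at 173 (67.1 in replicate 2, 108 in replicate 3).

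Among the other snoRNA genes the strongest summits were divided between the snoRNA and more distant positions. W06H8.17 had the highest signal, 571 (319 in replicate 2, 272 in replicate 3), 219 bp upstream. F59C6.15 followed with 417 (187 and 231), 91 bp upstream. The summit of T27A8.8 (350) was 781 bp upstream, that of ZK20.9 (335) 877 bp upstream and that of C26C6.13 (314) 300 bp upstream. W06H8.17, T27A8.8, ZK20.9 and C26C6.13 belong to the later block of identifiers, and in none of the 4 was the strongest summit within 100 bp. By contrast W03C9.9 had its summit 52 bp upstream at 302 (140 and 169), T03F7.8 22 bp upstream at 296 (144 and 168) and ZK484.9 20 bp upstream at 275 (127 and 144). These 3 were below the identifier gap, held the box B core and box A letters upstream and were higher in replicate 3 than in replicate 2. M7.15 had a pooled summit 76 bp upstream at 299, close in signal to T03F7.8, but its replicate peaks were lower (74.1 and 108) and had their summits 91 bp downstream and 174 bp upstream.

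A summit inside the snoRNA gene itself was the rarer arrangement. The highest of these 10 were C51F7.4 (308, described above) and F07A11.15 (302), whose summit was 32 bp into a gene of 271 bp. Y75B12B.12 followed with 243, at 22 bp inside, then K02C4.8 with 195 at the first base and ZK484.11 with 188 at 73 bp inside. In the replicates the summit of K02C4.8 lay 15 and 21 bp upstream, so that inside and upstream are not separable there at this resolution.

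The difference between the identifier blocks was large for peaks at the snoRNA. Below the gap, 32 of 52 other genes (61.5%, 47.0 to 74.7) and 21 of 87 hosted genes (24.1%, 15.6 to 34.5) had the strongest summit within 100 bp. Above it, 7 of 111 other genes (6.31%, 2.57 to 12.6) and 2 of 96 hosted genes (2.08%, 0.253 to 7.32) did. For hosted genes more than 1000 bp from the host 5' end the counts were 19 of 48 (39.6%) and 2 of 77 (2.60%). The blocks differ in how often the box letters were found, as given above, and the part of annotation in these counts was not tested. Of the 76 genes with either kind of box letters 20 (26.3%) had such a summit, among them 7 of 18 with C/D letters and 13 of 58 with the ACA. Of the 270 without them 42 (15.6%) had one. Most of the 76 lie below the gap, where 53 of all 139 genes (38.1%) had such a summit. The pooled shares thus mix letters with block and do not show that summits were commoner at genes with the letters. By chromosome the shares with any summit in the window ran from 12.1% of 33 genes on X to 38.2% of 55 on V, and X held only 3 genes of the earlier block.

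The promoter letters were then counted in the 120 bases upstream of each gene, on its strand. The box B core was found upstream of 20 of the 62 genes with a summit within 100 bp (32.3%), of 11 of 241 without an IDR summit (4.56%) and of 1.71% of all annotated genes. Box A letters were found at 22 of the 62 (35.5%), at 10.8% of those without a summit and at 3.39% of all genes. The PSE-like letters were found at 15 of the 62 (24.2%), at 23 of the 241 (9.54%) and at 0.798% of all genes, and also at 44 of 129 snRNA genes (34.1%). The box B core was thus several times commoner where a summit stood at the snoRNA than upstream of genes at large. For the box A and PSE-like letters no such conclusion is drawn, since they were picked from these loci. Beside snoRNA genes without a summit the PSE-like letters differed little among the other genes, at 8 of 39 (20.5%) with a summit within 100 bp and 18 of 108 (16.7%) with none, while among hosted genes they stood at 7 of 23 (30.4%) and 5 of 133 (3.76%). Below the identifier gap, the genes without a summit held the box B core at 9.68%, box A letters at 21.0% and PSE-like letters at 14.5%, and those with a summit within 100 bp at 37.7%, 39.6% and 26.4%. The box A and PSE-like letters were chosen after sequences of these loci had been read, so their shares at the 62 genes describe those genes only. On the opposite strand of the same 62 flanks the box B core was found 0 times, the PSE-like letters 1 time and the box A letters 5 times (8.06%). At genes without a summit box A letters were as frequent on the opposite strand as on the same one (26 genes each), and they lay within 100 bp of 29.2% of all IDR summits, against 45.9% of summits at snoRNA genes. A match is a match of letters, and it does not show that a factor binds there.

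**Figure D4:**
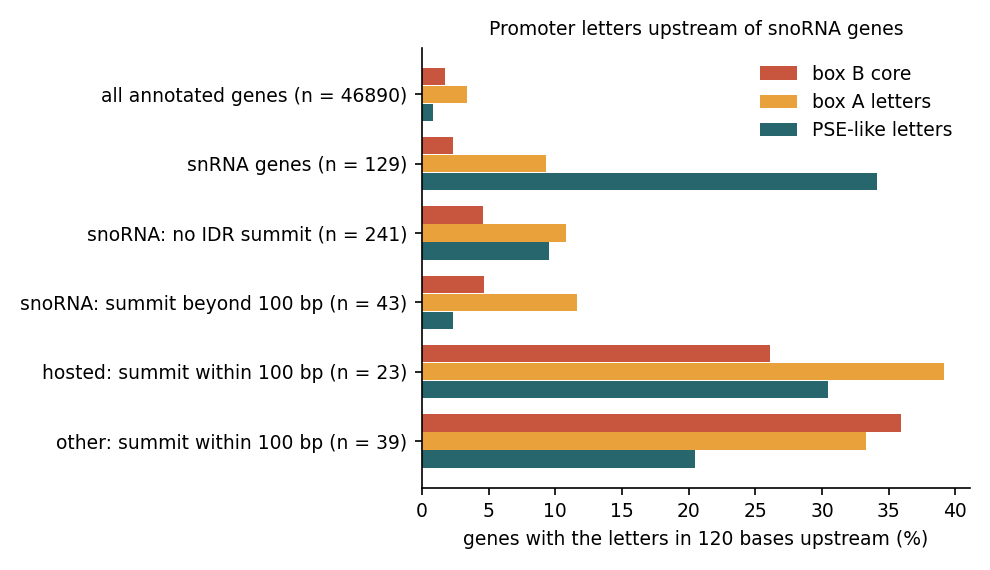
Share of genes (%) with the box B core, box A letters or PSE-like letters in the 120 bases upstream of the 5' end, same strand; n is the number of genes in each set. Hosted and other snoRNA genes with a summit within 100 bp stand above all snoRNA genes without an IDR summit for all 3 kinds, though among the other genes alone PSE-like letters stand at 20.5% and 16.7%, and PSE-like letters are also frequent at snRNA genes (34.1%). The box A and PSE-like letters were chosen after sequences of these loci had been read, so their bars at genes with a summit describe those genes only.

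Box B and PSE-like letters did not occur together at any of the 62 genes, and 35 of the 62 had 1 of them. The PSE-like letters were chosen after sequences of these loci had been read. This split and the comparison of signals below therefore describe these genes only. The hosted genes had the box B core at 6 of 23 and the PSE-like letters at 7 of 23, and the other genes had them at 14 and 8 of 39. Over all members, counting the match nearest the gene, the box B core began at a median of 14 bp before the 5' end (9 to 68 bp) and the PSE-like letters at a median of 59 bp (54 to 85 bp). Signal was lower at the 15 genes with PSE-like letters, with a median of 138 (104 to 417), than at the 20 with the box B core, with a median of 195 (107 to 308), and the ranges overlap. ACA letters were found in 3 genes of the box B set and 0 of the PSE set; C/D letters were found in 4 and 3. Among the PSE set were both SmY genes, smy-2 in C33A12.3 with a signal of 136 (65.2 and 64.3) and smy-3 with 107 (53.6 and 62.7).

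Read the other way, letters did not always come with a summit. Of all 33 snoRNA genes with the box B core upstream, 20 had the strongest summit within 100 bp, and of the 39 with PSE-like letters 15 did. Below the identifier gap these counts were 20 of 27 and 14 of 24, and above it 0 of 6 and 1 of 15. In 612 tRNA genes the box B core stood within the gene at 587 (95.9%). The box A letters stood within only 115 of them (18.8%), so that pattern misses most tRNA genes. Within 100 bp of a summit on either strand, the box B core was found at 41.0% of the 61 distinct summits at snoRNA genes. It was found at 88.5% of 156 summits near tRNA genes and at 11.5% of all IDR summits. Box A letters lay within 100 bp of 34.0% of those 156 summits, beside 29.2% of all IDR summits.

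Each replicate was also read alone, by its strongest 2268 peaks. In replicate 2 a summit lay in the window of 25.4% of snoRNA genes, beside 5.21% of all and 7.04% of coding genes, and within 100 bp of 15.6%, beside 1.53% and 1.26%. In replicate 3 the window share was 30.9%, beside 5.49% and 6.83%, and the share within 100 bp was 18.8%, beside 1.79% and 1.28%. The snoRNA share was thus above both backgrounds in either replicate alone. Both replicates had a peak over each of the 62 summits at snoRNA genes. Replicate 2 gave them signals from 26.9 to 187 with a median of 85.5, and replicate 3 from 27.6 to 231 with a median of 102. The replicates' own summits lay within 100 bp of the snoRNA at 59 and 60 of the 62, at medians of 33 and 35 bp upstream. The distance between the replicates' summits had a median of 30.5 bp, which is close to the distance from summit to gene, so single loci are placed less surely than the group. Across the 62 genes the signals of the replicates had a Spearman rho of 0.621, a description over loci that share both libraries.

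The loci at the snoRNA had higher signals in replicate 3 than in replicate 2, unlike the list as a whole. At equal list length, the strongest 2268 peaks of each replicate, 53 of the 62 genes were covered in replicate 2 and 61 in replicate 3. For all IDR summits the shares were 82.1% and 80.6%. The ratio of replicate 2 to replicate 3 signal had a median of 0.841 over the 61 distinct summits and 1.18 over 2218 IDR summits covered in both replicates, and it was below 1 at 75.4% and 31.8% of them. Summits near tRNA genes had a median ratio of 0.948. Hosted summits beyond 100 bp also had a ratio under that of the list, with a median of 0.975 over 21 summits, and 19 of the 27 hosted genes there were covered in replicate 2 and 25 in replicate 3. The shift was thus not confined to summits at the snoRNA. Summits of other snoRNA genes beyond 100 bp had a median of 1.49 over 16 summits. With 2 libraries and no stated scaling of the score, this difference has no replicate check and its cause was not tested. One hosted locus, Y49E10.36 in the histone gene his-72, had a strongest summit under no replicate 3 peak.

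**Figure D5:**
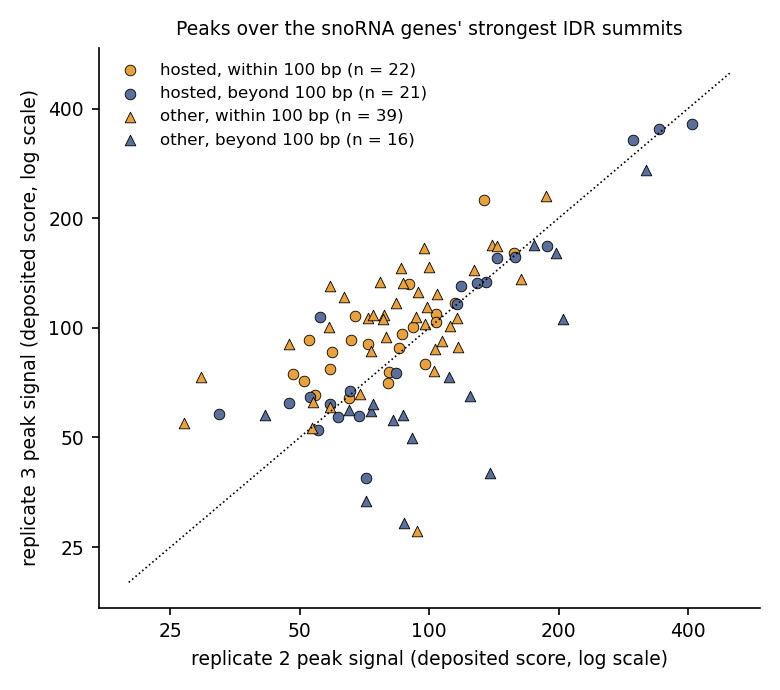
Deposited peak signal in replicate 2 (horizontal) and replicate 3 (vertical), both on log axes, over the distinct strongest IDR summits of snoRNA genes covered in both; circles are hosted and triangles other genes, orange within and blue beyond 100 bp of the 5' end, and the dotted line is equality. Of 61 orange points 46 lie above the line, and 15 of the 16 blue triangles lie below it.

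The 241 snoRNA genes without an IDR summit were not all without signal. In the pooled list of 30000 peaks, which reaches down to weak ones, 53 of them (22.0%) had a summit within 100 bp, with a median signal of 45.1 and none above 96.2. Over all 346 genes the pooled list gave 123 (35.5%) within 100 bp, against 9.05% of all annotated genes and 9.41% of coding genes. The IDR list begins at a signal of 97.9, so these loci lie just under or well under its threshold, and a locus outside the list is not shown to be unbound.

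Genes for the proteins that work with snoRNAs were read the same way. Of 13 such genes matched in the annotation, 7 had an IDR summit in the promoter window (53.8%, 25.1 to 80.8), beside 7.10% of coding genes. The strongest was at fib-1, the methyltransferase of box C/D particles, with 255 in the pooled list, 159 in replicate 2 and 110 in replicate 3, 86 bp upstream. It was followed by dkc-1, the pseudouridine synthase of box H/ACA particles (168), nol-58 (140) and nol-56 (115) of the C/D core, nola-3 of the H/ACA core (115), and the assembly helicases ruvb-2 (113) and ruvb-1 (106). The summits after fib-1 lay 89 to 282 bp upstream, except that of nola-3 at 622 bp. Whether the nola-3 summit stands nearer another gene is not given here. The other genes of the 13, among them snu-13, dao-5 and the debranching enzyme gene dbr-1, had none. Signals at these promoters lay within the range of those at snoRNA genes, 98.1 to 768. That range starts near the floor of the IDR list, so this shows no likeness.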

How the data were processed

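Peak lists from chromatin immunoprecipitation were used as deposited, on build ce11 per the file headers and notes deposited with them. The authors called peaks in each replicate and in both together against 1 control alignment and derived the IDR list from these; for the caller, the aligner and the threshold of the IDR step no source used here gives a name or value. The deposited peak signal is a score, used to rank peaks within a list. The deposited −log10 q-value was not used for any call. The control alignment was not used here. Depth is unknown, since peak lists hold no read totals, and intervals cover counting error only.

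Summits were placed from the deposited summit offset. Hosts, windows and sequences were computed with Python 3.11.15 from Ensembl 115 and the RefSeq genome of the same assembly; window counts were tested on simulated data. Shares carry exact (Clopper-Pearson) 95% intervals and no p-value, since there is 1 group. Where a gene had several hosts, that with the nearest 5' end was taken. Named genes were those with the 10 highest distinct summits in each group, the 5 highest inside a gene, the 10 highest hosted without a host summit, hosts of at least 4 genes and proteins of a fixed list of 25 names. Members and lists were chosen with earlier results of these data known.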

Additional observations from a re-analysis of the deposited data

How the results depend on the processing

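No paired analysis was possible because the labels give 1 group only, with nothing to pair. Of 56 shares recomputed under other settings, 39 stayed inside the exact interval of the reported share. A window of 500 bp upstream to 100 bp downstream gave 23.7% of all, 18.0% of hosted snoRNA genes and 17.9% of host promoters, and the part of hosted summits nearer the host fell from 48% to 24.2%, since fewer host promoters are then inside. A window of 2000 bp upstream to 500 bp downstream gave 36.4% of all and 35.5% of hosted genes, and 60% nearer the host. The stronger 1134 IDR peaks gave 20.2% of all, 16.9% of hosted and 23.9% of other genes, and 14.2% within 100 bp. With 1 replicate left out at a time, the share of all genes ran from 25.4% (without replicate 3) to 30.9% (without replicate 2) and that of hosted genes from 20.8% to 28.4%. Settings chosen after the data were seen were the distance to the 5' end and the identifier block. Within 50 bp of the 5' end 12.1% had a summit. Genes of the earlier block alone gave 55.4% of all, 49.4% of hosted and 65.4% of other genes, and 38.1% within 100 bp, so the reported shares depend on which annotated genes are counted. The number of reads behind a peak is unknown, which limits how surely weak loci can be called.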
